A study of Homo sapiens with 12 samples.

Results

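The ligand TRAIL, cell surface receptors and intracellular proteins of the caspase-8 axis were measured, and not all of these receptors recruit caspase-8. The 10 genes, of the 29123 gene names on the array, were TNFSF10, TNFRSF10A, TNFRSF10B, TNFRSF10D, FAS, TNFRSF1A, TNFRSF12A, FADD, CASP8 and CFLAR. They were found by the gene name that the scanner files give to each gene probe, which led to 17 of 41000 probes. HuH-7, a human hepatocellular carcinoma line whose labels give the genotype p53 mutant Y220C, was treated for 24 h with the solvent DMSO, with 28 µM SLMP53-2 or with 42 µM SLMP53-2, a small molecule studied as a reactivator of mutant p53, and total RNA was hybridised to arrays of 1 colour. The doses are 2 and 3 times the IC50, and part of the labels give 48 µM for the arrays that their titles call 42 µM, the name used here. Each group held 4 arrays that the labels describe as biological replicates, and all 12 arrays came from this 1 line, with no p53-deficient cells beside it. The 12 arrays lay on 5 slides that mixed the groups. Of the hepatocyte marker genes, 7 of 8 were well above background on all 12 arrays (ALB, AFP, APOA1, APOB, SERPINA1, HNF4A and FGB). The remaining one, TTR, was well above background on all of the 11 arrays where it had a value. The leukocyte marker PTPRC was so on 0, while the leukocyte markers CD3E, CD14 and LYZ gave signals above background on all 12.

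TRAIL, encoded by TNFSF10, binds the death receptors DR4 (TNFRSF10A) and DR5 (TNFRSF10B, also called KILLER), whose cytoplasmic death domains gather the adaptor FADD and the protease caspase-8. Clustered caspase-8 cuts itself and then the executioner caspases, and the product of CFLAR, c-FLIP, competes with it in the same complex. FAS starts the same chain, the decoy receptor TNFRSF10D binds TRAIL without a complete death domain, TNFRSF1A mainly signals to NF-kB, and TNFRSF12A (Fn14), the receptor of TWEAK, lacks a death domain. TNFRSF10B is known as a gene that p53 and CHOP, a factor of the unfolded protein response, can both induce.

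All 17 probes are 60 bases long. Several genes have more than one probe, and 3 of the 17 probes share sequence with probes of other genes, so the letters of 6 probes that share none and whose readings are compared below are shown first. Probes of one gene are numbered here in the order of their positions on the transcripts, as the files list them. The first 30 bases are given, 5′ to 3′, in lower case, since none of them lies in a stretch of at least 18 bases found, on either strand, in a probe of another gene name.
TNFRSF12A: tcactcagatgtcctgaaattccaccacgg
TNFRSF1A probe 1: agacactgatgaccccgcgacgctgtacgc
CASP8 probe 1: tttcagaagaagtgagcagatcagaattga
CASP8 probe 3: aatccagctatgaatatagagggcttatga
CFLAR probe 1: aatctggttgccccagatcaactggattta
CFLAR probe 2: gaaattcttgcatctcagtatgcatggtat
In hg19 these stretches lie at chr16:3072180-3072209 (plus strand) for TNFRSF12A, at chr2:202136256-202136285 and chr2:202151838-202151867 for CASP8 probes 1 and 3 and at chr2:202000731-202000760 and chr2:202025198-202025227 for CFLAR probes 1 and 2, all of these on the plus strand. The whole of TNFRSF1A probe 1, whose positions span more than its own length, is placed at chr12:6438734-6438948 (minus strand). In all, 14 of the 17 probes, among them both TNFRSF10B probes and the TNFRSF12A probe, hold no stretch of 18 bases found in a probe of another gene name.

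On the scale used throughout, normalized log2 brightness, 3 of the 17 probes rose at 42 µM and 0 fell, where called means a Benjamini-Hochberg adjusted p below 0.05 over all 33467 tested probes from limma together with a log2 fold change no smaller than 0.6. The 3 are the TNFRSF12A probe and both probes of TNFRSF10B, so the calls concern 2 receptor genes. Among all tested probes 1.41% were called higher at 42 µM and 1.23% lower, 2.64% in either direction. At 28 µM, 0 of the 17 and 0% of all probes were called by limma, while 4 of the 17 and 11% of all probes had an unadjusted p below 0.05. At 42 µM, 5 of the 17 and 15.4% of all probes had one. The median log2 fold change over the 17 probes was 0.06 at 28 µM and 0.19 at 42 µM, beside -0.01 and -0.01 over all tested probes.

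**Figure D1:**
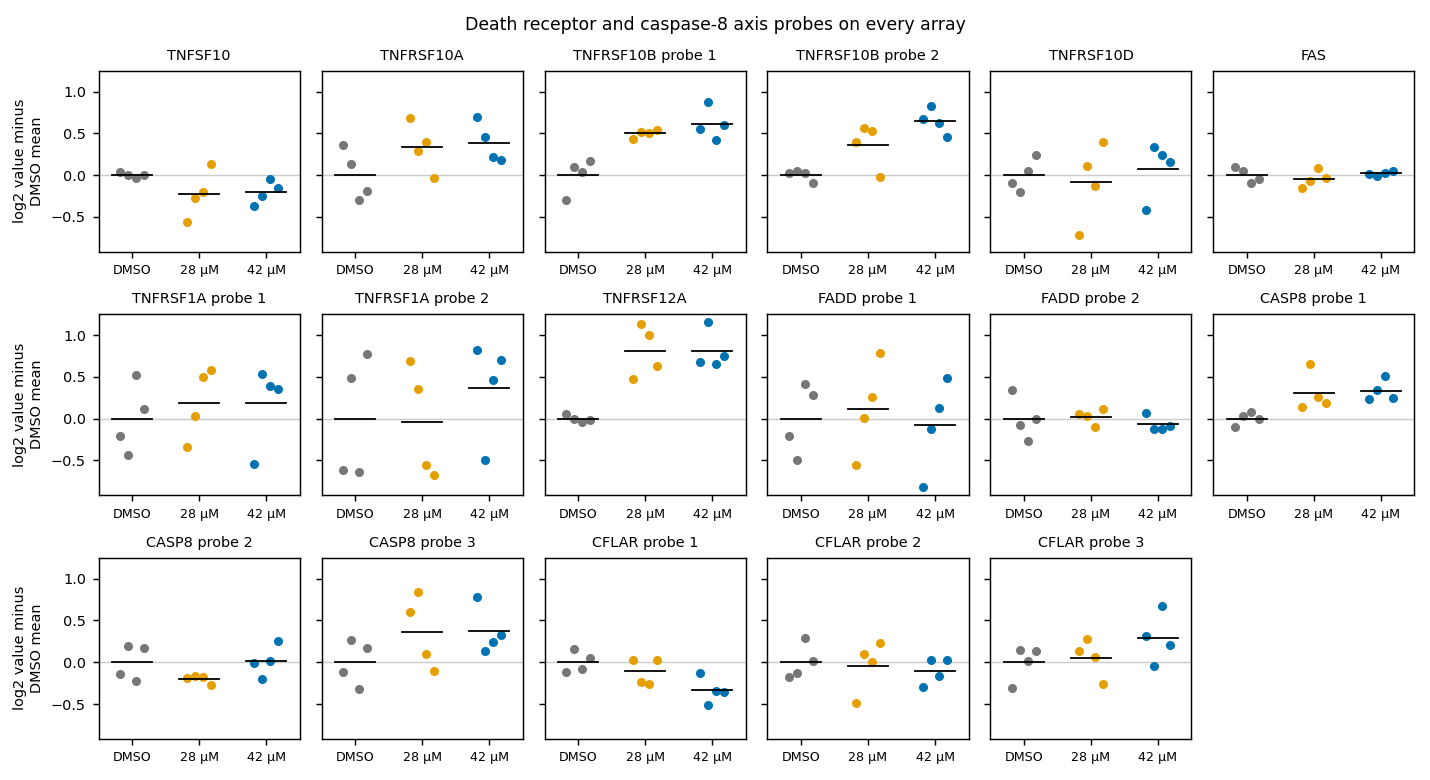
Normalized log2 value of each of the 17 probes on every array, given as the difference from the mean of the 4 DMSO arrays of that probe, with 4 points per group (DMSO, 28 µM and 42 µM, in order of replicate number) and the group mean as a line. The 42 µM points of TNFRSF12A and of both TNFRSF10B probes all lie above the DMSO points, while those of TNFRSF1A probe 2 and FADD probe 1 spread widely in every group.

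TNFRSF12A, the Fn14 receptor that activates NF-kB and growth responses when TWEAK binds, gave the largest change of the 17 probes. Its log2 values were 13.10, 13.04, 13.00 and 13.02 on DMSO replicates 1 to 4, 13.52, 14.17, 14.04 and 13.67 at 28 µM, and 13.71, 14.19, 13.70 and 13.79 at 42 µM. All 8 treated arrays lay above all 4 DMSO arrays, and the treated arrays spread more (SD 0.30 at 28 µM and 0.23 at 42 µM) than the DMSO arrays (SD 0.04, n = 4 each). The log2 fold change was 0.81 at the higher dose (SE 0.16, 95% interval 0.47 to 1.14, limma adjusted p = 0.0175), a level 1.75-fold that of DMSO. At 28 µM the difference was equally 0.81 (interval 0.48 to 1.15), with an adjusted p of 0.144 that did not pass. The difference between the doses was -0.0019 (SE 0.16) with an interval of -0.34 to 0.33 and was not called.

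TNFRSF10B, the DR5 receptor of TRAIL, was higher on both of its probes at 42 µM. On probe 1 the values were 7.67, 8.07, 8.01 and 8.14 on DMSO, 8.41, 8.49, 8.47 and 8.52 at 28 µM, and 8.52, 8.85, 8.39 and 8.57 at 42 µM. Each of the 8 treated arrays exceeded the highest DMSO array, and the lowest DMSO value was replicate 1. On probe 2 the values were 12.09, 12.11, 12.10 and 11.97 on DMSO, 12.46, 12.63, 12.60 and 12.05 at 28 µM, and 12.74, 12.90, 12.70 and 12.52 at 42 µM. The 42 µM arrays lay above DMSO here too, whereas 28 µM replicate 4, at 12.05, lay within the DMSO range. On that same array probe 1 read 8.52, the highest of the 28 µM values.

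The log2 fold changes at 42 µM were 0.61 on probe 1 (SE 0.13, interval 0.33 to 0.89, adjusted p = 0.0253) and 0.65 on probe 2 (SE 0.14, interval 0.35 to 0.94, adjusted p = 0.0253), both from limma. These correspond to 1.53-fold and 1.57-fold. At 28 µM the differences were 0.50 (interval 0.22 to 0.78, adjusted p = 0.196) and 0.37 (interval 0.07 to 0.66, adjusted p = 0.343), and neither was called. From 28 to 42 µM, TNFRSF10B differed by 0.11 on probe 1 (interval -0.17 to 0.39) and by 0.28 on probe 2 (interval -0.01 to 0.58), and limma called neither. The change from DMSO to 42 µM on probe 2 minus that on probe 1 was 0.04 (exact permutation test of 4 against 4 arrays, two-sided, p = 0.771). Over the 12 arrays the probes correlated with r = 0.74, and with TNFRSF12A at r = 0.86 (probe 1) and 0.83 (probe 2), a description of arrays that share groups.

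The slides mixed the groups, and 3 slides held both a DMSO and a 42 µM array. Within them TNFRSF12A was higher at 42 µM by 0.69, 1.19 and 0.66, TNFRSF10B probe 1 by 0.38, 0.84 and 0.32, and TNFRSF10B probe 2 by 0.77, 0.80 and 0.58. All 9 differences were above 0, as they had to be where every 42 µM array lay above every DMSO array. Their signs therefore add nothing to that separation. With slide as a fixed block the log2 fold changes were 0.81, 0.57 and 0.67, and none of the 3 was called (adjusted p = 0.0636, 0.0886 and 0.0851 from limma), in a model that left 1 of all 33467 probes called. With the authors' normalized values TNFRSF10B probe 1 was at 0.58 (limma adjusted p = 0.0259), under the fold limit and so not called. Single arrays also ended the calls: for TNFRSF12A the adjusted p without DMSO replicate 1, 2 or 4 or without 42 µM replicate 2 was 0.0504, 0.0619, 0.0524 and 0.0707, at log2 fold changes of 0.83, 0.81, 0.80 and 0.69. TNFRSF10B probe 1 was not called without DMSO replicate 1, 2 or 3 or without 42 µM replicate 1 or 2, at log2 fold changes of 0.51, 0.64, 0.62, 0.63 and 0.52. Probe 2 was not called without any one DMSO array or without 42 µM replicate 1, 2 or 3, at 0.59 to 0.66. Calls were lost over the whole array too. Without DMSO replicate 2 or 42 µM replicate 2 the smallest limma adjusted p of all 33467 probes was 0.0505 and 0.0522. By the brightest probe of each of 24168 genes, 1.58% were called higher with all arrays. Without DMSO replicate 1, 3 or 4 this was 0.443%, 0.811% and 0.525%, and without 42 µM replicate 1 or 3 it was 0.91% and 0.956%. Without 28 µM replicate 4, TNFRSF12A was called at 28 µM, with a log2 fold change of 0.87 and an adjusted p of 0.0183 from limma.

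**Figure D2:**
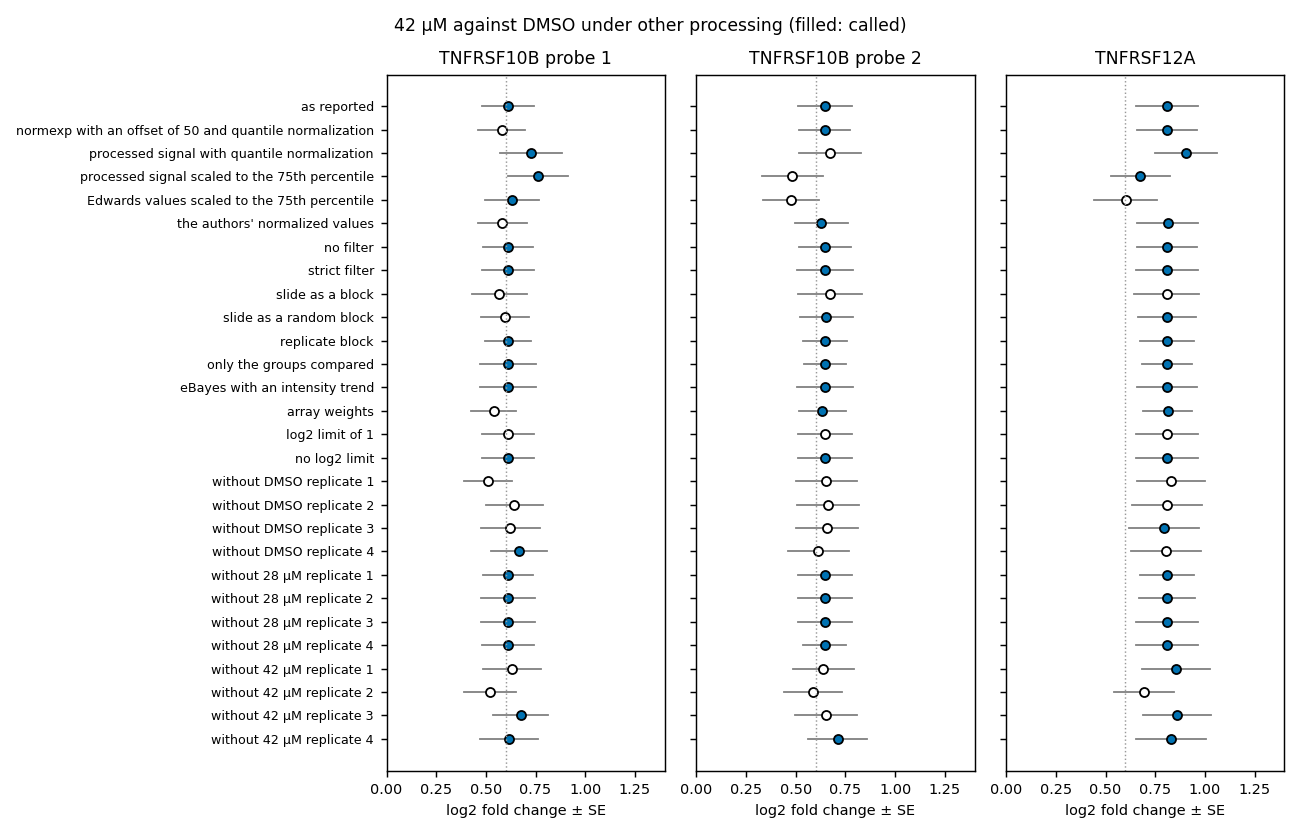
Log2 fold change at 42 µM against DMSO of TNFRSF10B probes 1 and 2 and of TNFRSF12A as reported and under 27 other settings, 1 row each, with bars of 1 SE, filled points where the probe was called and a dotted line at 0.6. Every point lies above 0, from 0.51 to 0.76 for TNFRSF10B probe 1, from 0.48 to 0.71 for probe 2 and from 0.60 to 0.91 for TNFRSF12A.

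The ligand TNFSF10 was dim, with a brightness 2.25 to 3.28 times that of its local background, and was well above background on 11 of 12 arrays. Its values were 6.67, 6.64, 6.59 and 6.63 on DMSO, 6.07, 6.35, 6.43 and 6.76 at 28 µM, and 6.27, 6.38, 6.59 and 6.48 at 42 µM. The 42 µM arrays lay below DMSO, although the highest of them and the lowest DMSO array both rounded to 6.59, and 28 µM replicate 4 was the highest of all 12 arrays. The log2 difference was -0.20 for the higher dose (interval -0.50 to 0.09, adjusted p = 0.558) against -0.23 for the lower (adjusted p = 0.568), and limma called neither.

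TNFRSF10A, which encodes DR4, differed by 0.39 from DMSO under 42 µM (SE 0.18, interval -0.01 to 0.78, adjusted p = 0.344) and under 28 µM by 0.33 (adjusted p = 0.531). Its values were 8.71, 8.48, 8.06 and 8.16 on DMSO, 9.04, 8.64, 8.75 and 8.32 at 28 µM, and 9.05, 8.81, 8.57 and 8.53 at 42 µM. DMSO replicates 1 and 2 overlapped the treated range, and 2 of 4 arrays at each dose exceeded the highest DMSO array. In the 3 slides that held both groups the 42 µM array was higher each time, by 0.08 to 0.89.

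The decoy receptor TNFRSF10D showed a log2 difference of 0.08 at 42 µM (interval -0.40 to 0.56) and -0.08 at 28 µM (interval -0.56 to 0.40). It was dim, at 2.36 to 4.28 times its local background. The lowest values were 6.06 on 28 µM replicate 1 and 6.35 on 42 µM replicate 1, which lay on 1 slide with DMSO replicate 4 at 7.01. FAS was nearly level, with DMSO arrays at 6.29 to 6.49, 28 µM arrays at 6.24 to 6.48 and 42 µM arrays at 6.39 to 6.44. Its differences of -0.04 (interval -0.25 to 0.17) and 0.02 (interval -0.19 to 0.23) have the narrowest intervals of the 17 probes, and its brightness was 2.32 to 2.97 times the local background, close to the limit of detection. TNFRSF10A, TNFRSF10D and FAS were not called in any comparison.

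TNFRSF1A, the TNF receptor 1, was read by probes that moved apart. On probe 2 the values were 7.29, 8.39, 7.26 and 8.68 on DMSO, 8.59, 8.26, 7.35 and 7.23 at 28 µM, and 8.72, 7.40, 8.37 and 8.61 at 42 µM. Ordered by slide, the same values were 7.29 to 7.35 on slide 1, 8.59 to 8.72 on slide 2, 8.26 to 8.61 on slide 3, 7.23 to 7.40 on slide 4 and 8.37 to 8.39 on slide 5. The arrays of slides 1 and 4 were low whatever the treatment, and those of slides 2, 3 and 5 were high. Differences between slides made up 98.0% of the variance of this probe, beside a median of 43.9% over all tested probes with a value on every array, of which 20 had a higher share. The 10 spots of this probe on an array had a median SD of 0.13, far smaller than the gap between the slides. Within slides its 42 µM arrays differed from DMSO by -0.02 to 0.14.

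On TNFRSF1A probe 1 the values were 10.45, 10.22, 11.18 and 10.77 on DMSO, 10.31, 10.69, 11.15 and 11.24 at 28 µM, and 10.11, 11.19, 11.05 and 11.02 at 42 µM. Slide made up 53.8% of its variance, and slide 4, low on probe 2, was the highest here. The correlation between the probes over the 12 arrays was -0.57. The log2 differences at 42 µM were 0.19 on probe 1 (interval -0.41 to 0.78) and 0.37 on probe 2 (interval -0.49 to 1.23), and neither was called. The 8 probes of other gene names that share at least 18 bases with probe 2 correlated with it from -0.74 to 0.90, and the part of the shared bases in the slide pattern was not tested.

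**Figure D3:**
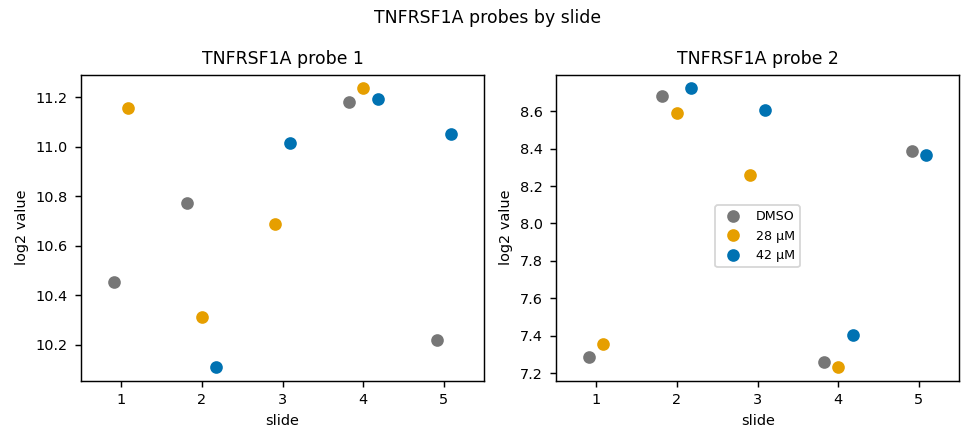
Normalized log2 value of the TNFRSF1A probes on the 12 arrays, ordered along the x axis by slide (1 to 5) and coloured by group. On probe 2 the arrays of a slide sit together, at 7.23 to 7.40 on slides 1 and 4 and at 8.26 to 8.72 on slides 2, 3 and 5, with all 3 groups in both levels.

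FADD, the adaptor between the receptors and caspase-8, did not pass the test on either probe. Probe 2 read 13.27 to 13.87 in the DMSO group, 13.43 to 13.64 in the 28 µM group and 13.40 to 13.60 in the 42 µM group, a difference at 42 µM of -0.07 (interval -0.34 to 0.21). Probe 1 ranged from 8.89 to 9.80 in the DMSO group, from 8.83 to 10.17 in the 28 µM group and from 8.57 to 9.87 in the 42 µM group. Its difference of -0.08 came with an interval of -0.75 to 0.59, which holds a fall of 0.6, while the interval of probe 2 lay inside that limit on both sides.

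CASP8, the initiator caspase, differed in the same direction on 2 of 3 probes, and none was called. On probe 1 the values were 6.44, 6.57, 6.63 and 6.54 on DMSO, 6.69, 7.20, 6.80 and 6.73 at 28 µM, and 6.78, 6.89, 7.06 and 6.80 at 42 µM. All treated arrays lay above DMSO, on a dim probe whose brightness was 2.39 to 3.78 times that of its local background. Probe 1 differed by 0.31 on the log2 scale under 28 µM (interval 0.04 to 0.59, adjusted p = 0.392) and under 42 µM by 0.33 (interval 0.06 to 0.61, limma adjusted p = 0.205). On probe 3 they were 0.36 and 0.37 with overlapping groups (adjusted p = 0.569 and 0.469). On probe 2 the difference was -0.20 under the lower dose (adjusted p = 0.602) and 0.01 under the higher (adjusted p = 0.978). DMSO arrays of probe 2 read 7.23 to 7.65, those of 28 µM 7.18 to 7.29 and those of 42 µM 7.25 to 7.72.

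The difference between CASP8 probes was tested directly. The change at 28 µM on probe 3 minus that on probe 2 was 0.56 (exact permutation test, two-sided, p = 0.0286, the smallest that 4 against 4 arrays allow), and on probe 2 minus probe 1 it was -0.51 (p = 0.0286, same test). After adjustment over the 27 tests of 9 probe pairs and 3 comparisons both adjusted values were 0.257. A few tests at the smallest possible p could not pass this adjustment, so it cannot show that the probes agree. CASP8 probe 2 shares 19 bases with a probe of PXN and as many with a probe that the files name only by its identifier, and 38 of its 60 bases lie in such stretches. Its correlation with those probes over the 12 arrays was -0.01 and 0.09.

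CFLAR, which encodes c-FLIP, gave probes that pointed both ways at 42 µM and none that was called. Probe 1 read 8.29, 8.56, 8.32 and 8.45 on DMSO, 8.43, 8.17, 8.15 and 8.44 at 28 µM, and 8.28, 7.90, 8.06 and 8.05 at 42 µM. All 42 µM arrays lay below DMSO, the closest at 8.28 against 8.29, and the log2 difference was -0.33 (SE 0.12, interval -0.60 to -0.07, adjusted p = 0.183 from limma). With array weights the difference was -0.38 with an adjusted p of 0.0411, under the fold limit. Within the slides it was -0.17, -0.42 and -0.50. Probe 2 differed by -0.10 (interval -0.45 to 0.25).

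CFLAR probe 3 read 7.78, 8.24, 8.10 and 8.23 on DMSO, 8.23, 8.37, 8.15 and 7.83 at 28 µM, and 8.40, 8.04, 8.76 and 8.29 at 42 µM. With 3 of 4 arrays above the highest DMSO array, its difference at 42 µM was 0.29 (SE 0.17, interval -0.08 to 0.65, adjusted p = 0.477). The change on probe 3 minus that on probe 1 was 0.62 (exact permutation test, two-sided, p = 0.0286, adjusted p = 0.257). As for CASP8, this adjusted value cannot show that the probes agree. All 60 bases of probe 3 lie in stretches shared with probes of METTL21A, over 34 bases, and of BBS5. Over the 12 arrays CFLAR probe 3 correlated with the METTL21A probe at r = 0.95 and with the BBS5 probe at r = 0.77, while it correlated with CFLAR probes 1 and 2 at -0.25 and -0.30. These are descriptions over arrays that share slides and groups. The METTL21A probe differed by 0.81 at 42 µM (SE 0.38, adjusted p = 0.335) and the BBS5 probe by 0.55 (SE 0.19, adjusted p = 0.154), neither of them called.

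**Figure D4:**
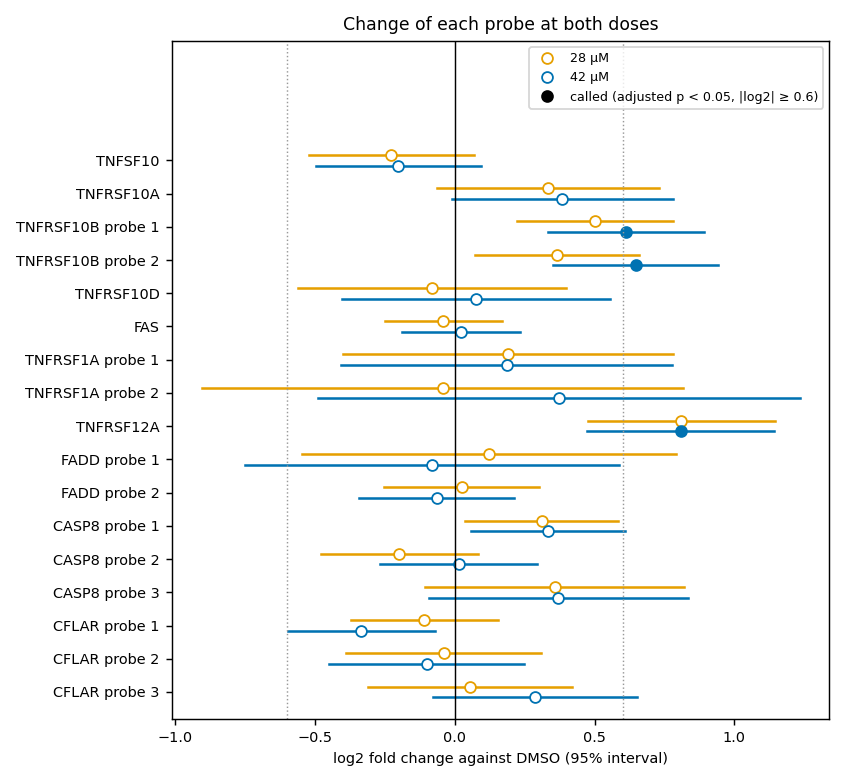
Log2 fold change against DMSO of the 17 probes at 28 µM and 42 µM with 95% intervals from limma, filled where called, and dotted lines at 0.6 and -0.6. The 3 filled points are those of both TNFRSF10B probes and TNFRSF12A at 42 µM, the probes of CASP8 and CFLAR lie on both sides of each other, and TNFRSF1A probe 2 has the widest interval.

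Groups that did not overlap gave a second count. At 42 µM, 4 of the 17 probes had all arrays above DMSO (both TNFRSF10B probes, TNFRSF12A and CASP8 probe 1) and 2 had all arrays below it (TNFSF10 and CFLAR probe 1), beside 5.83% and 6.49% of all tested probes, 12.3% in either direction. At 28 µM, 3 probes lay above (TNFRSF10B probe 1, TNFRSF12A and CASP8 probe 1) and 0 below, beside 2.69% and 2.68%, together 5.37%. Between 28 and 42 µM, 0 of the 17 probes were apart, where 1.48% of all tested probes were, 0.63% higher and 0.852% lower at 42 µM. In that comparison limma called 0 of 33467 probes, 0%, and 0 of the 17 had an unadjusted p below 0.05, beside 2.44% of all.

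Most other genes of the pathway were not called. The lists were drawn up with earlier results of these arrays known, so their counts are a description, and the probe of highest mean value stood for each gene. Of 11 other ligands and receptors (such as FASLG, TNF and LTBR) 0 were called by limma at 42 µM, with a median log2 fold change of -0.02. Of 19 tested adaptors, ubiquitin ligases and kinases (such as TRADD, RIPK1 and BIRC2) 0 were called, with a median of 0.05, and of 16 caspases and genes of the mitochondrial branch (such as BID and XIAP) 0 were called, with a median of -0.01. Unadjusted p values were below 0.05 for 2, 5 and 3 genes of these lists, beside 16.1% of all 24168 genes. The median over those genes was -0.02, and 1.58% of them were called higher and 1.42% lower. Of these genes 2 were called by limma under some of 27 other settings, and they are named here after their values were seen. TRAF5, an adaptor of TNF receptors, was at 0.61 at 42 µM (adjusted p = 0.0527) and was called under 8 settings, the authors' normalized values among them. LTBR, the lymphotoxin beta receptor, was at 0.80 (adjusted p = 0.0802) and was called under 4.

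Among 9 tested NF-kB response genes CXCL1, a chemokine that TNF receptors can induce, fell by 1.42 on the log2 scale at 42 µM (SE 0.33, limma adjusted p = 0.0345), and the other 8 were not called. Its values were 12.28, 11.83, 11.80 and 11.92 on DMSO, 10.83, 9.93, 10.52 and 11.98 at 28 µM, and 10.68, 10.12, 10.78 and 10.57 at 42 µM. The 42 µM arrays were below DMSO, and 28 µM replicate 4 lay within the DMSO range. Limma did not call CXCL1 with slide as a block (log2 difference -1.29, adjusted p = 0.126), with the processed signal and quantile normalization (-1.45, adjusted p = 0.064) or without any one of the 8 DMSO and 42 µM arrays (-1.50 to -1.28, adjusted p = 0.0583 to 0.132).

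The list of stress factors linked to TNFRSF10B had 6 of 10 genes called higher at 42 µM and 0 lower, with a median log2 fold change of 0.78. DDIT3, which encodes CHOP, rose by 2.19 (SE 0.41, adjusted p = 0.0166), from 7.84 to 8.21 on DMSO to 9.17 to 10.84 at 42 µM. TRIB3, a CHOP target, rose by 2.19 (SE 0.40, adjusted p = 0.0159) and ATF3 by 2.13 (SE 0.42, adjusted p = 0.0196). CEBPB rose by 1.45 and FOXO3 by 0.81 (adjusted p = 0.0302 and 0.0303), and ATF4, the translational stress factor upstream of CHOP, by 0.76 (SE 0.12, adjusted p = 0.0125), all from limma. SP1, ELK1, NFKB1 and RELA were not called (log2 differences of -0.07, 0.05, -0.41 and 0.01). The 6 calls were 0 with slide as a fixed block, without DMSO replicate 2 or without 42 µM replicate 2, at medians of 0.79, 0.78 and 0.68. They numbered 2, 3 and 2 without DMSO replicate 1, 3 or 4. Of all 24168 genes, 0% were called higher under each of the settings that left 0 calls. Without DMSO replicate 1, 3 or 4 the share was 0.443%, 0.811% and 0.525%.

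On 28 µM replicate 4 DDIT3, TRIB3, ATF3, CEBPB and TNFRSF10B probe 2 were low together, while TNFRSF10B probe 1 read 8.52, above every DMSO array. A link between these genes and TNFRSF10B was not tested. DDIT3 read 9.99, 9.85, 9.93 and 8.05 at 28 µM, TRIB3 15.48, 15.34, 15.07 and 13.18, ATF3 11.70, 11.49, 11.08 and 9.77, and CEBPB 13.08, 12.65, 12.66 and 11.42. Replicate 4 is the last of each. It lay inside the DMSO range for DDIT3 (7.84 to 8.21) and beside it for TRIB3 (13.19 to 13.33), ATF3 (9.44 to 9.74) and CEBPB (11.44 to 11.64). ATF4, at 16.59, 16.15, 16.36 and 16.11, FOXO3, at 8.45, 9.03, 8.58 and 8.44, and TNFRSF12A stayed above every DMSO array on replicate 4. Without that array 5 of the 10 genes were called higher at 28 µM, beside 1.45% of all 24168 genes, where 0 of either were called with it.

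**Figure D5:**
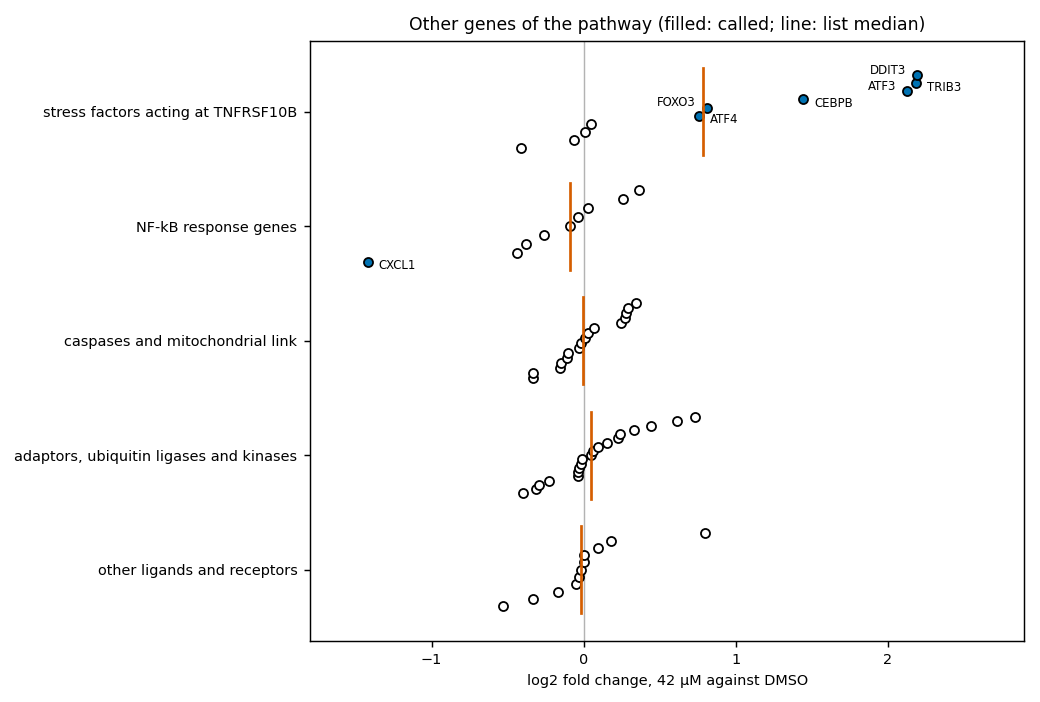
Log2 fold change at 42 µM against DMSO of the tested genes of 5 lists, 1 point per gene, filled and named where called, with a line at the list median. The filled points are DDIT3, TRIB3, ATF3, CEBPB, FOXO3 and ATF4 on the right and CXCL1 on the left, and the medians of the other 4 lists lie between -0.09 and 0.05.

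As a description, the genes whose brightest probe most resembled the brightest TNFRSF10B probe over the 12 arrays were NOXA1 (Pearson r = 0.99), C9orf91 (0.98), OPLAH (0.98), ENO2 (0.98) and VEGFA (0.98), of 24167 gene names compared. Those most like TNFRSF12A were SRXN1 (0.97), LINC00998 (0.97), GNPTG (0.96), CTSL (0.96) and APOE (0.95). No gene stood in both groups of 5. The 12 arrays share groups and slides, and names are those of the files.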

How the data were processed

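The members, lists and tests were chosen with earlier results of these data known. The authors deposited Feature Extraction 10.7.3.1 output, as intensity of every spot and its background with flags for detection, outliers and saturation (other columns), and a table of their log2 values after Edwards correction and quantile normalization. The intensities were processed again in that way with limma 3.58.1 in R 4.3.3. Flagged outlier spots were left out, spots of a probe were averaged, and a probe was dropped where each group had 3 or more of its 4 arrays not well above background. The fit (lmFit, eBayes) took all 12 arrays and 3 groups, two-sided, with Benjamini-Hochberg adjustment over 33467 probes. The rule named all members, the called genes of each list and the 5 genes most like TNFRSF10B or TNFRSF12A. Other list genes are named as examples, as the uncalled stress factors or after their values were seen, and the partners of shared probes for their sequence. The results correlated with the authors' values at 0.999 or more on every array. Per array 65.0% (28 µM replicate 3) to 85.0% (28 µM replicate 1) of gene spots were well above background, and the number of arrays limits precision. The lowest array weight, 0.31, was that of 28 µM replicate 1. Quantile normalization removes a shift common to all probes. The procedure was tested on simulated data with planted changes larger than those of the called members and no slide effect. Recovery of changes of the members' size was not tested. Probe positions are hg19, from the files. Alternatives were other background corrections and scalings, filters, blocks, weights and limits, and leaving out each array. Promoter and protein sequences of the called genes were not used here. Some values and sequences are not reported here.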

Additional observations from a re-analysis of the deposited data

Results flagged for a closer look

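In groups of 4 arrays, 1 array stood apart from the other 3 by more than Dixon's 95% limit in 3 of 51 probe and group combinations, where chance alone gives about 1 in 20. TNFRSF10B probe 2 read 11.97 on DMSO replicate 4, below 12.09 to 12.11 on the other DMSO arrays. TNFRSF1A probe 1 read 10.11 on 42 µM replicate 1, below 11.02 to 11.19 on the other 42 µM arrays. CASP8 probe 2 read 7.18 on 28 µM replicate 4, below 7.27 to 7.29 on the others.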

How the results depend on the processing

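Over 27 other settings, the 17 probes and 3 comparisons, 1343 values kept their sign and their side of the limits or moved by less than 1 replicate SD. Of the rest, 30 lost a call, 1 gained one and 3 turned in sign by more than that SD. Only 3 results were called as reported, all at 42 µM, and the 30 lost calls were theirs. At 42 µM TNFRSF12A was called under 20 of 27 settings, TNFRSF10B probe 1 under 16 and probe 2 under 15, always above 0. The 3 calls among the members became 2 without TNFRSF10B probe 1 under normexp, the authors' normalized values, slide as a random block and array weights (0.54 to 0.60, under the fold limit), and 2 without probe 2 under both processed-signal settings (0.67 and 0.48). They became 1 after 75th percentile scaling of the Edwards values, 0 with slide as a block and 0 at a log2 limit of 1, and were 0 to 3 when single arrays were left out. Over all probes, 472 higher and 413 lower at 42 µM became 247 and 195 with the processed signal and quantile normalization, 278 higher with it scaled to the 75th percentile, 0 and 1 with slide as a block, 209 and 157 at a log2 limit of 1, and 0 to 671 and 0 to 550 when single arrays were left out. At 28 µM leaving out single arrays gave 0 or 1 members, 0 to 438 probes higher and 0 to 281 lower, all of them without 28 µM replicate 4. The cause of these changes in the counts was not tested. The value at 28 µM turned for FAS to 0.13 with the processed signal scaled to the 75th percentile, and for FADD probe 2 to -0.16 with that signal and -0.17 with the Edwards values so scaled, none of them called.

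Deviations of arrays with the same replicate number correlated from -0.46 to 0.62, above 0.1 in 7 of 12 pairs. The labels do not say what arrays of the same number share. Whether the numbers pair the samples was not settled, and the reported model does not pair them. With the replicate number as a block, 1 probe was called higher and 1 lower at 28 µM, 776 higher and 590 lower at 42 µM, and the member calls at 42 µM numbered 3. The SEs at 42 µM of TNFRSF12A and TNFRSF10B probes 1 and 2 were then 0.14, 0.12 and 0.11. As reported they were 0.16, 0.13 and 0.14. TNFSF10, FAS, TNFRSF10D and CASP8 probe 1 lay near background. The repeated spots of TNFSF10 and FAS on an array had median SDs of 0.16 and 0.14. These were 0.13 for TNFRSF1A probe 2 and 0.10 for CASP8 probe 2, the other members with repeated spots. Between arrays the dim probes were not read with less precision, with an SE at 42 µM against DMSO of 0.14 for TNFSF10 and 0.10 for FAS. Whether changes near background are read at their full size was not tested.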
